A study of Homo sapiens with 6 samples.

Results

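The open chromatin of the long arm of chromosome 11 (11q) was described in neuroblastoma cells. Its members were all peaks on chromosome 11 that started at or beyond 54 Mb in 6 lists of ATAC-seq peaks, which gave 25172 of the 1044250 peaks of all lists. The short arm (11p), with 21739 peaks, served as the contrast. SK-N-AS is a human neuroblastoma cell line, and the cells were grown out of SK-N-AS tumors carried by mice. Naïve cells came from a vehicle-treated tumor, and the cells named R1 and R2 came from tumors that had resisted indisulam, a compound that binds the splicing factor RBM39 to the DCAF15 ubiquitin ligase for degradation. The resistant tumors were taken after a second relapse, in the third cycle of treatment, and the labels say that the cultured cells themselves received no drug. Each of the 3 cell types had 2 libraries, of 100000 cells each. The sources do not state whether the libraries of a cell type were separate cultures, so the tests measure only the spread between these libraries.

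In ATAC-seq a transposase cuts accessible chromatin, and a peak is a stretch with more cuts than its surroundings. Active gene starts are almost always accessible, while accessible sites far from genes are mostly enhancers and differ more between cell types. Loss of material from 11q is a recurrent change in high-risk neuroblastoma without amplification of MYCN. The arm carries the cell adhesion genes NCAM1 and CADM1, the DNA damage kinase genes ATM and CHEK1, the cell cycle gene CCND1 and large clusters of olfactory receptor genes.

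The naïve lists held 3828 and 3110 peaks on 11q, the R1 lists 7865 and 6957, and the R2 lists 1617 and 1795. The libraries differed in depth. The background rates recovered from the lists were 2.29 and 1.35 tags per window in naïve cells, 7.94 and 5.43 in R1 cells and 0.850 and 0.899 in R2, which is the order of the peak numbers. Numbers of peaks were therefore not compared between cell types as a property of the cells. As a share of its list, 11q held 2.47% and 2.69% of the naïve peaks, 2.31% and 2.38% of the R1 peaks and 2.39% and 2.44% of the R2 peaks. Peaks on 11q had a median width of 358 and 336 bp in naïve cells, 429 and 419 bp in R1 cells and 298 and 289 bp in R2, and the widest reached 22597 bp, in the first R1 library. The last peak before 54 Mb ended between 53354193 and 53987601 in the 6 lists, with a fold enrichment of 4.36 to 15.7, and the first peak beyond it started between 54219119 and 57242423, with a fold enrichment of 2.95 to 7.57.

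Stretches of 151 bases about the summits of 11q regions are printed here because the results turn on them. OSBP, which encodes a sterol-binding protein, and DHCR7, which encodes the last enzyme of cholesterol synthesis, lay beside the 2 strongest start-site regions. The region 16934 bp from MRGPRD was the strongest away from start sites. The region near RTN4RL2 was higher in both resistant cell types. Those near SERPINH1 and SYVN1 and in PPFIA1 were lower in R1. All are read 5′ to 3′ on the plus strand of hg38.
OSBP, chr11:59615868-59616018: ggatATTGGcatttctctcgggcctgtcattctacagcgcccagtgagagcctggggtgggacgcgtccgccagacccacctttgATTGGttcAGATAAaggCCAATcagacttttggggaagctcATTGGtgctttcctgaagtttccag
DHCR7, chr11:71448404-71448554: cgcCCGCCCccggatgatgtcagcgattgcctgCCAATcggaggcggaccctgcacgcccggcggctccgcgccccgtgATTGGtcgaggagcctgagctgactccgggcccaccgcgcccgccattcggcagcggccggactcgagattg
Near MRGPRD, chr11:68963977-68964127: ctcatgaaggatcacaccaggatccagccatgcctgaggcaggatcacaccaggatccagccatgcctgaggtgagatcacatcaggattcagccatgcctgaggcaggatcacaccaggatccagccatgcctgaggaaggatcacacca
Near RTN4RL2, chr11:57483043-57483193: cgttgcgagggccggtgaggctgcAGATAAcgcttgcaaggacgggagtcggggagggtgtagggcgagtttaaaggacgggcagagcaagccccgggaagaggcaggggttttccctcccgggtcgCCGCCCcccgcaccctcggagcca
Near SERPINH1, chr11:75554472-75554622: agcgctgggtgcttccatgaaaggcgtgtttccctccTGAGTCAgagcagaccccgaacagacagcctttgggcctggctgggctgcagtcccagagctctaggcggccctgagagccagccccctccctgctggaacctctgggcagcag
Near SYVN1, chr11:65150789-65150939: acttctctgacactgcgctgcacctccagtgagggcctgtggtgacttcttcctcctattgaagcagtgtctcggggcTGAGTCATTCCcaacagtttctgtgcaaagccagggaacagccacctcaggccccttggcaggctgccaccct
In PPFIA1, chr11:70371349-70371499: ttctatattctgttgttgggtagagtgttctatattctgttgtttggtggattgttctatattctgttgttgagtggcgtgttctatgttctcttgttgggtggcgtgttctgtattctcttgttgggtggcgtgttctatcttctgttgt

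Capitals mark matches, on either strand, to the motifs searched: the CCAAT box, the SP factor box with the letters GGGCGG, the GATA factor site with the letters AGATAA, the AP-1 site with TGANTCA and the TEAD site with GGAATG. Near SYVN1 the last of these overlaps the AP-1 site. In windows of this length about the 819 regions of 11q tested below, the CCAAT box was found in 17.1%, the SP box in 38.2%, the GATA site in 1.71%, the AP-1 site in 6.47% and the TEAD site in 6.35%. Over all 36449 regions tested in the genome the shares were, in this order, 15.4%, 32.4%, 1.73%, 5.87% and 7.47%. The sequence near MRGPRD is a tandem repeat of 33 bases, with 88.1% identity between bases a period apart, and that in PPFIA1 is a repeat of 27 bases, with 87.9% identity. A match is a description of the letters and not evidence that a factor bound there.

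Open regions were packed into the part of 11q nearest the centromere. In the bin of 65 to 70 Mb, which holds 141 protein-coding genes, the naïve lists had 1583 and 1332 peaks, the R1 lists 1966 and 1921 and the R2 lists 679 and 699. In each library this bin was denser than at least 96.1% of the 586 bins of 5 Mb in the genome. The density then fell. In the bin of 80 to 85 Mb, with 7 genes, there were 9 and 7 peaks in naïve cells, 23 and 17 in R1 cells and 9 and 7 in R2. It rose again from 110 Mb on, and the bin of 115 to 120 Mb, with 69 genes, had 96 and 82 peaks in naïve cells, 674 and 484 in R1 cells and 45 and 47 in R2. This profile had the same order in all 6 libraries, whatever their depth.

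**Figure D1:**
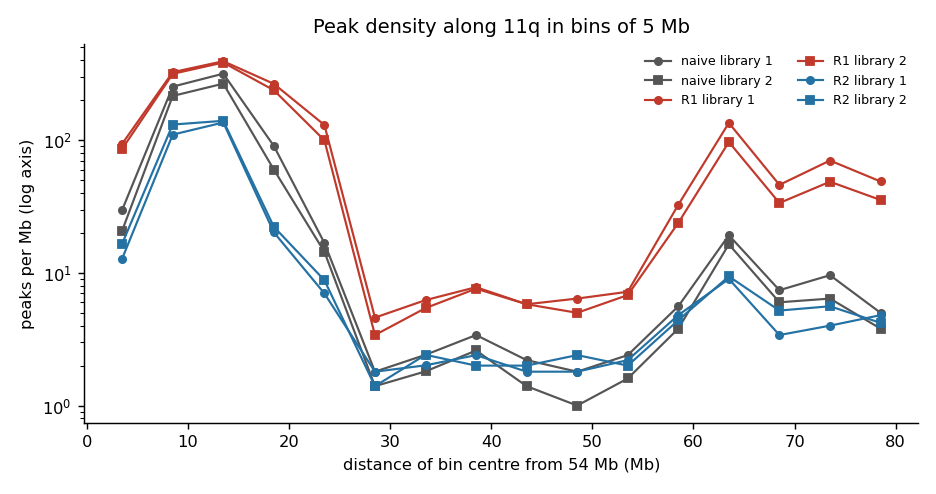
Peaks per Mb (log axis) in bins of 5 Mb along 11q against the distance of each bin's centre from 54 Mb, with a line for each library. In the first naïve library the peaks in a bin fell from 1583 to 9 and rose to 96, and the R1 lines rose most toward the end of the arm.

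Bounds at 80 and 110 Mb, set after the bins had been seen, split the arm into a proximal, a middle and a distal segment. The proximal segment had 137 and 112 peaks per Mb in naïve cells, 233 and 217 in R1 cells and 55.3 and 61.6 in R2. The middle had 2.34 and 1.63 per Mb in naïve cells, 6.34 and 5.67 in R1 cells and 2.00 and 2.04 in R2. The distal segment had 9.33 and 7.26 in naïve cells, 66.3 and 47.5 in R1 cells and 5.18 and 5.74 in R2. Thus the 30 Mb of the middle segment held only 49 to 190 peaks, against 1427 to 6012 in the proximal one. Most bins of the genome with like numbers of genes were denser. Across the 285 bins of the genome with 7 to 27 genes, as in the 6 bins of the middle segment, the median density was 8.60 and 5.60 per Mb in naïve cells, 39.8 and 29.6 in R1 cells and 5.00 and 5.40 in R2. The share of those bins that were no denser than the densest bin of the middle was 17.9% and 18.6% in the naïve libraries, 6.67% and 11.9% in R1 cells and 18.6% and 15.4% in R2.

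The few peaks in the middle of the arm were mostly at gene starts. Within 1000 bp of an annotated start site lay 77.1% and 87.8% of the middle's peaks in naïve cells, 56.3% and 60.0% in R1 cells and 73.3% and 78.7% in R2, which left 16 and 6, 83 and 68, and 16 and 13 peaks away from starts. In the proximal segment the naïve libraries had shares of 31.1% and 36.6% near a start, beside 21.3% and 22.5% in R1 cells and 48.1% and 47.7% in R2. Distal shares in naïve cells ran to 57.3% and 64.3%, beside 27.5% and 33.0% in R1 cells and 70.8% and 64.6% in R2. In every library the middle segment had a larger share near starts than the proximal one. Over the whole arm the share was 33.5% (95% Wilson interval 32.0 to 35.0%) and 39.0% (37.3 to 40.8%) in naïve cells, 23.4% (22.5 to 24.4%) and 25.2% (24.2 to 26.3%) in R1 cells and 50.8% (48.4 to 53.3%) and 50.1% (47.8 to 52.4%) in R2. These intervals cover counting error only. In each library the 11q share was above that of all peaks, which ran from 16.5% in R1 to 39.2% in R2.

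Seen from the genes, the outer part of the arm also had fewer open starts. Of the 439 proximal protein-coding genes that are not olfactory receptors, 78.1% and 76.3% had a peak within 1000 bp of the start in naïve cells, 90.4% and 89.3% in R1 cells and 66.7% and 69.5% in R2. Of the 121 middle genes the shares were 45.5% and 38.8%, 70.2% and 67.8%, and 42.1% and 42.1%. Of the 209 distal genes they were 42.6% and 40.7%, 77.5% and 76.6%, and 34.0% and 34.0%. For all 19554 such genes of the genome the shares were 73.1% and 69.4%, 86.6% and 84.9%, and 62.6% and 63.7%, and 11p had 75.7% and 74.9%, 88.4% and 88.6%, and 68.6% and 69.2%. The proximal segment and 11p thus lay above the genome in every library, and both outer segments lay below it. A peak in all 6 lists was found at 62.2% of the proximal genes, 27.3% of the middle genes and 23.4% of the distal genes, and 120 of the 769 genes had none in any list.

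**Figure D2:**
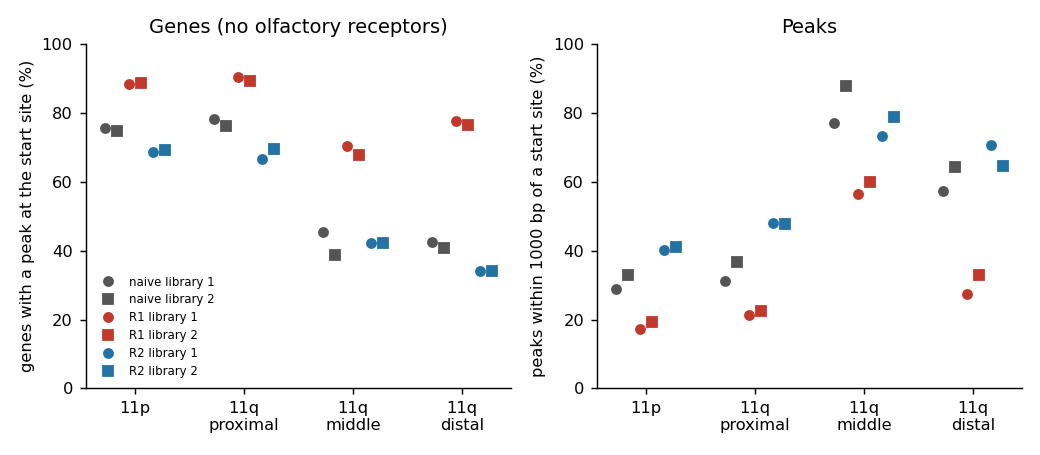
Percent of protein-coding genes with a peak at the start site (left) and percent of peaks within 1000 bp of a start site (right) on 11p and in the proximal, middle and distal segments of 11q, with a point for each library. Genes of the outer segments had a peak less often in all 6 libraries (distal 34.0% to 77.5%, proximal 66.7% to 90.4%).

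The lower share on the outer arm was also seen at promoters rich in G and C, which are open in most cell types. Of the 136 distal genes with a GC content of at least 60% about the start, 58.8% and 55.9% had a peak in naïve cells, 97.8% and 96.3% in R1 cells and 47.8% and 47.8% in R2, beside 88.4% and 86.0%, 98.2% and 97.6%, and 78.8% and 79.9% for all GC-rich promoters of the genome. In the deep R1 libraries nearly every such promoter was called on the distal arm as in the genome, while in the shallower libraries the distal share was well below that of the genome. A peak's strength was next expressed as the percentile rank of the gene's best peak among all genes of the library, by −log10 p, with genes that have no peak sharing the lowest rank. The median percentile of the distal GC-rich promoters was 34.3 and 35.8 in naïve cells, 41.6 and 43.3 in R1 cells and 19.4 and 18.9 in R2, and for the genome it was 62.4 and 62.5, 63.2 and 63.3, and 62.5 and 61.1. In R1, where both sets were called almost in full, the distal promoters still ranked lower, and in R2 their median was the rank shared by genes with no peak. The 59 middle promoters of this kind had medians of 38.9 and 33.7, 45.3 and 45.6, and 43.7 and 42.7, and the 313 proximal ones 62.4 and 64.8, 66.8 and 70.6, and 62.5 and 64.5. Genes of a segment are neighbours and not replicates, so these differences carry no test.

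Olfactory receptor genes, which are mostly silent outside the nose, form clusters at 54 to 57 Mb and 123 to 125 Mb. The first window, with 53 receptor genes and 3 others, held 2 and 1 peaks in naïve cells, 12 and 17 in R1 cells and 0 in either R2 library. The second, with 24 receptor genes among 20 others, held 21 and 17, 87 and 71, and 11 and 15. Of the 99 receptor genes of 11q, 3 and 2 had a peak at the start in the R1 libraries and none had one in the other 4. On 11p, 12 and 6 of 79 had one in R1, 3 and 0 in naïve cells and 1 in each R2 library.

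To compare libraries at like list lengths, the 20000 peaks with the best p of each library were used. On 11q lay 2.07% and 2.15% of these in naïve cells, 2.77% and 2.79% in R1 cells and 2.09% and 2.16% in R2. The R1 libraries stood apart from the other 4, which ran from 2.07% to 2.16%. R1 had 561 and 559 such peaks on 11q, whereas the other libraries had 421 to 493, and ties at the limit lengthened the lists to between 20030 and 23539 peaks. On 11p the naïve libraries had 2.32% and 2.44%, beside 2.44% and 2.34% in R1 cells and 2.23% and 2.13% in R2, and R1 did not stand apart. The mean of the 4 resistant libraries exceeded that of the naïve ones by 0.345 percentage points (two-sided exact permutation test, p = 0.2; 0.0667 is the smallest p that 2 against 4 libraries allow). With the top 50000 peaks the difference was -0.0345.

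By segment, the distal part of the arm held 38 and 32 of the top peaks in naïve cells, 89 and 84 in R1 cells and 56 and 50 in R2. As shares, the naïve libraries had 0.186% and 0.157%, beside 0.440% and 0.419% in R1 cells and 0.238% and 0.249% in R2. Both naïve libraries were the lowest (two-sided exact permutation test, p = 0.133). The middle held 0.103% and 0.0639% in naïve cells, 0.232% and 0.200% in R1 cells and 0.115% and 0.114% in R2 (two-sided exact permutation test, p = 0.133). The proximal segment held 1.78% and 1.93%, 2.10% and 2.17%, and 1.74% and 1.80%, and there the R2 libraries overlapped the naïve ones.

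**Figure D3:**
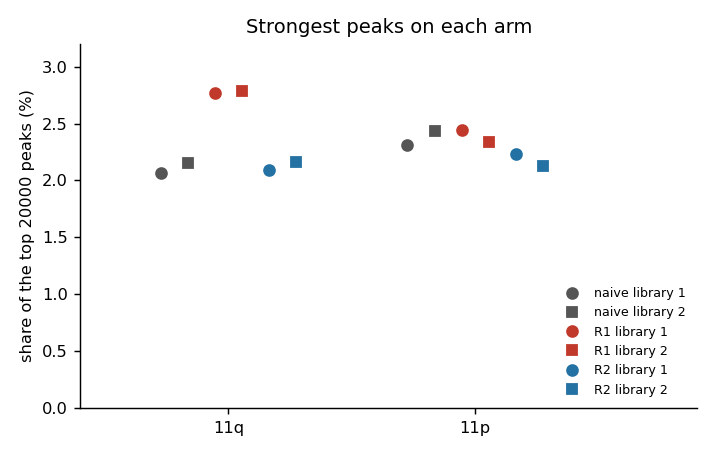
Share of the top 20000 peaks of each library that lay on 11q and on 11p, in percent, with a point for each of the 6 libraries. On 11q both R1 libraries (2.77% and 2.79%) were above the other 4 (2.07% to 2.16%), and on 11p R1 did not stand apart.

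The strongest 11q peaks were start sites, more often than elsewhere. Among the top 20000, 70.8% and 73.1% of the 11q peaks in naïve cells, 73.4% and 71.7% in R1 cells and 72.8% and 74.0% in R2 lay within 1000 bp of a start, beside 54.1% to 62.1% of all top peaks. The CCAAT box, within 50 bp of the summit, was found at 20.2% and 17.8% of top 11q peaks in naïve cells, 19.1% and 19.1% in R1 cells and 16.4% and 17.5% in R2, beside 13.8% to 15.7% of all top peaks. The CCAAT box and the SP box were each more frequent on 11q than in the genome in all 6 libraries, also within 100 bp. The ETS site with the letters CCGGAAG was more frequent in 6 libraries within 50 bp and in 5 within 100 bp. The TEAD site, at 2.06% to 4.99% of top 11q peaks against 4.72% to 6.61% of all, was less frequent on 11q in all 6, also within 100 bp. The E-box with the letters CAGCTG was less frequent in 6 libraries within 50 bp and in 4 within 100 bp. The part of the larger share of start sites among top 11q peaks in these motif differences was not tested. The AP-1 site had 9.50% and 7.08% on 11q in naïve cells, 2.495% and 2.15% in R1 cells and 6.09% and 5.30% in R2, and over the genome 8.69% and 6.10%, 2.36% and 2.29%, and 5.06% and 4.87%. The lower AP-1 share of R1 was thus seen on 11q and in the genome alike.

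Among the regions with a peak in all 6 lists, which are the only ones ranked here, start sites led. The OSBP region at chr11:59615387-59616469 ranked 405 and 709 by p among naïve peaks, 344 and 613 in R1 cells and 2116 and 1807 in R2. The DHCR7 region at chr11:71448310-71448772, in an intron, ranked 582 and 655, 608 and 876, and 2116 and 981. The region at the start of CDK2AP2, which encodes a partner of a cell cycle kinase, at chr11:67507746-67508963, ranked 1407 and 995, 1590 and 823, and 749 and 981. OSBP and DHCR7, whose printed sequences hold 4 and 2 CCAAT boxes, both belong to sterol handling. Away from starts, the repeat near MRGPRD at chr11:68963886-68964137 ranked 3692 and 1808 in naïve cells, 3894 and 3575 in R1 cells and 2619 and 1807 in R2. The next such region lay in an intron of the noncoding gene LINC02952 at chr11:69443247-69443755. An annotated transcript start lay 1185 bp from its summit, little beyond the limit of 1000 bp. The nearest protein-coding start, that of MYEOV, was 149403 bp away. All of these lay in the proximal segment.

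On 11q, as in the genome, few strong regions belonged to a single cell type. Of the 310 11q regions in the top 20000 of both naïve libraries, none lacked a peak in all other libraries, and 0 of 310 did so for R2. Over the genome 0.0751% and 0.33% did. For R1 5 of 491 (1.02%) were restricted in this way, and over the genome 1.35% were. Among them, and not in order of rank, the region at chr11:85810868-85811362 lay 22 bp from the start of SYTL2, which encodes a protein of vesicle transport, and ranked 14330 and 16897. Further ones lay in STX3 at chr11:59766451-59766931, in LINC02715 at chr11:109772769-109773227 and in POLA2 at chr11:65288515-65289086. R1 was sequenced most deeply, so a region restricted to naïve or R2 cells had to be absent from the longest lists. The part of depth in the counts of all 3 cell types was not tested. Among the top 10000 peaks the R1 count was 1 and among the top 50000 it was 66.

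Levels at the same places were compared over the regions of the first R2 list that overlapped a peak in all 6 lists. There were 36449 such regions, and 819 lay on 11q, 737 of them proximal, 25 in the middle and 57 distal. They are 819 of the 1617 11q peaks of that list, so the remainder, which lacked a peak in at least 1 other library, was not tested. The log2 fold enrichment was quantile-normalized between libraries and tested with limma, with Benjamini-Hochberg adjustment over all 36449 regions. Between resistant and naïve cells 9 regions of 11q were called higher, against 1.86% of all regions in that direction, and none lower, against 1.84% of all. At an unadjusted p under 0.05 there were 109 higher and 31 lower, against 11.9% and 11.3% of all regions. These were 140 of the 819 regions, a smaller share than the 23.2% of all regions in either direction. Between R1 and naïve cells 46 were higher and 5 lower, beside 3.88% and 3.32% of all regions. Between R2 and naïve cells 8 were higher and 8 lower, beside 2.02% and 2.36%. Between R1 and R2 78 were higher in R1 cells and 22 lower, beside 6.41% and 6.21%. As shares of the 819 regions these were 1.10% and 0%, 5.62% and 0.61%, 0.98% and 0.98%, and 9.52% and 2.69%. With median centring in place of quantile normalization the splits were 24 higher and 3 lower for resistant against naïve (3.73% and 3.5% of all regions) and 83 and 25 for R1 against naïve (6.95% and 8.08%). They were 13 and 6 for R2 against naïve (2.8% and 2.26%) and 104 and 47 for R1 against R2 (8.7% and 12.6%). On 11p, where 999 regions were tested, 16 were higher and 6 lower in resistant cells, and 99 higher and 26 lower in R1 against R2.

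These calls rested on few libraries. Without either naïve library or either R1 library no 11q region was called between resistant and naïve, R1 and naïve or R2 and naïve cells, and without the first R2 library none was called for R2. Between R1 and R2 the count fell from 100 to 4 without the first R1 library and to 10 without the second.

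Most of the higher calls in R1 sat inside wide peaks. Of the 46 regions higher in R1 than in naïve cells, 42 (91.3%) shared a peak of the first R1 library with another tested region, as did 75 of the 78 (96.2%) higher in R1 than in R2 and 8 of the 8 lower in R2 than in naïve cells, beside 53.1% of all tested 11q regions. Over the genome 80.1%, 98.2% and 97.1% of the regions called in the same ways shared such a peak, so this was not particular to 11q. The median width of that R1 peak was 10728 bp for regions higher in R1 than in naïve cells and 4091 bp for all 11q regions. A region that shares a wide peak was given the value of the whole peak, so its level need not be its own. When only 1 region per shared peak was kept, 525 regions of 11q remained. Of these, 29 were then higher and 12 lower in R1 than in naïve cells, beside 5.31% and 6.24% of all, and 17 higher and 7 lower in R1 than in R2, beside 1.57% and 5.1%. Of the regions lower in R1, 1 of the 5 against naïve cells and 2 of the 22 (9.1%) against R2 shared an R1 peak with another region, and the median R1 peak was 702 and 828 bp wide.

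**Figure D4:**
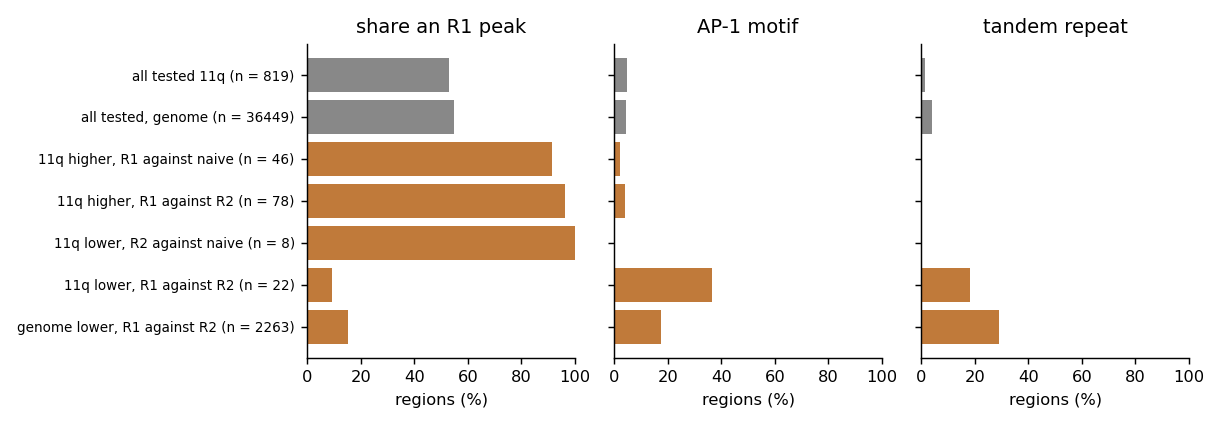
Percent of regions that shared a peak of the first R1 library with another region, held AP-1 within 50 bp of the summit, or were a tandem repeat, for all tested regions and for called regions, with the number of regions beside each bar. Regions higher in R1 were mostly in shared peaks (91.3% and 96.2%), as were such regions of the genome (80.1% and 98.2%, not drawn). Those lower in R1 than in R2 held AP-1 in 36.4% and a repeat in 18.2%.

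The 5 regions lower in R1 than in naïve cells lay outside annotated genes or in introns. Near SERPINH1, which encodes a collagen chaperone, the region at chr11:75554297-75554907 had a log2 fold enrichment of 3.60 and 3.81 in naïve cells, 2.57 and 2.37 in R1 cells and 3.75 and 3.13 in R2 (R1 minus naïve -1.24 ± 0.25 SE, adjusted p = 0.029). In an intron of MRGPRF, an orphan receptor gene, the values at chr11:69008639-69009093 were 3.73 and 4.20, 2.87 and 2.82, and 4.02 and 3.74 (-1.12 ± 0.22, adjusted p = 0.029). Near SYVN1, which encodes a ubiquitin ligase of the endoplasmic reticulum, they were 3.12 and 3.41, 2.47 and 2.29, and 3.58 and 3.48 at chr11:65150703-65150955 (-0.89 ± 0.19, adjusted p = 0.038). In all 3 both R1 libraries were below the other 4, and each holds an AP-1 match about its summit, as printed for SERPINH1 and SYVN1. The others lay in introns and held no AP-1 match. AP-1 was thus within 50 bp of the summit in 3 of the 5, beside 4.9% of the 819 tested 11q regions. Over the genome 26.6% of the regions called in this direction held it. In MYO7A, a myosin gene of the inner ear, the values at chr11:77192735-77192934 were 3.50 and 3.35, 2.30 and 2.30, and 2.95 and 3.26 (-1.13 ± 0.19, adjusted p = 0.020). About its summit the identity between bases a period of 73 apart was 65.4%, under the 70% set for a tandem repeat. Only periods of 10 to 75 bases were searched. The window holds many copies of the shorter unit GATGGT, so the limit given below for repeats may hold here too. In PPFIA1, whose product organizes cell adhesion sites, the 27-base repeat at chr11:70371225-70371613 had 4.55 and 4.81, 3.48 and 3.87, and 5.36 and 5.14 (-1.004 ± 0.22, adjusted p = 0.037). An annotated transcript start lay 97 bp from its summit, and the nearest main start of a protein-coding gene is that of CTTN, 27105 bp away. R1 was also below R2 at this repeat by -1.57 (adjusted p = 0.0066).

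Over all 22 regions of 11q lower in R1 than in R2, 8 (36.4%) held AP-1 within 50 bp of the summit, against 40 of the 819 tested (4.9%) and 17.4% of all regions of the genome called in that direction. Within 1000 bp of a start lay 5 of them (22.7%), against 529 of the 819 (64.6%), and the part of this in the AP-1 share was not tested. The TEAD site was in 1 (4.5%), against 4.2% of the 819 and 19.4% of such regions of the genome. Of the 22, 4 (18.2%) were tandem repeats with at least 70% identity, against 10 of 819 (1.2%), and 28.9% of the called regions of the genome were. Of the 78 higher in R1, 3 (3.8%) held AP-1. A repeat near MMP8, a collagenase gene in the middle segment, at chr11:102730769-102731315, had 3.23 and 3.81 in naïve cells, 2.95 and 3.36 in R1 cells and 4.42 and 4.04 in R2 (R1 minus R2 -1.07 ± 0.27, adjusted p = 0.040). A repeat in an intron of CD5 was lower in R1 than in R2 by -1.12 (adjusted p = 0.041). With 1 region per shared peak neither was called (adjusted p = 0.070 near MMP8 and 0.089 in CD5). Reads in repeats can be placed at several copies, so these levels are uncertain.

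Higher in both resistant cell types was a region outside annotated genes, 22590 bp from the start of RTN4RL2, which encodes a receptor that restrains neurite growth. At chr11:57482476-57483287 it had 2.39 and 2.47 in the naïve libraries, 3.82 and 3.75 in R1 cells and 3.58 and 3.65 in R2 (resistant minus naïve 1.27 ± 0.15, adjusted p = 0.025). In an intron of MIR130AHG, the host gene of a microRNA, the values at chr11:57638891-57639779 were 2.70 and 3.00, 4.44 and 4.40, and 4.19 and 3.65 (1.32 ± 0.20, adjusted p = 0.029). In both regions the naïve libraries were below all 4 resistant ones, which was a condition for naming them in this comparison. With 1 region per shared peak the adjusted p of resistant against naïve was 0.007 near RTN4RL2 and 0.009 in MIR130AHG. For R2 against naïve alone the adjusted p was 0.017 near RTN4RL2 and 0.049 in MIR130AHG. With 1 region per shared peak these became 0.030 and 0.059, so the region in MIR130AHG was then not called for R2. Against naïve cells R2 was also called higher in an exon of MALAT1, an abundant nuclear noncoding RNA. There, at chr11:65506824-65508008, both naïve libraries were low, with 2.30 and 1.95, beside 2.39 and 2.77 in R1 cells and 4.02 and 3.13 in R2 (R2 minus naïve 1.45 ± 0.32, adjusted p = 0.049), and the difference between R1 and R2 was not called (adjusted p = 0.082). Near NAALADL1, a peptidase gene, they were 2.39 and 2.94, 2.69 and 2.51, and 4.09 and 3.81 at chr11:65061046-65061245 (1.28 ± 0.24, adjusted p = 0.032). Near the start of CAPN5, a calpain protease gene, they were 3.16 and 2.82, 3.57 and 3.50, and 4.02 and 3.93 at chr11:77066350-77067027 (0.99 ± 0.20, adjusted p = 0.039), and with 1 region per shared peak the adjusted p was 0.063.

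**Figure D5:**
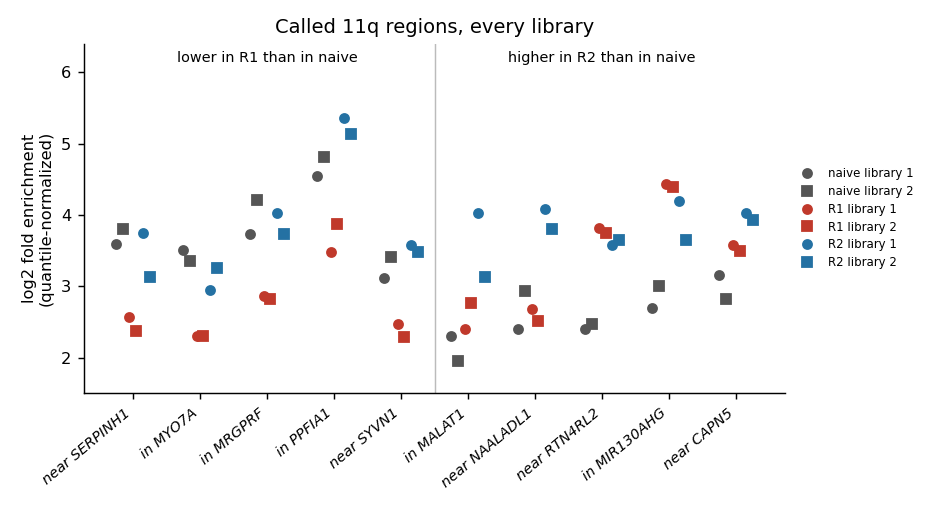
Quantile-normalized log2 fold enrichment in each library at 11q regions called lower in R1 than in naïve cells (left of the line) and higher in R2 than in naïve cells (right). On the left both R1 libraries sit below both naïve libraries, and near RTN4RL2 and in MIR130AHG all 4 resistant libraries sit above the naïve ones. Regions were named only where the compared groups did not overlap, so this separation was set by the choice.

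Among the largest differences in favour of R1 over naïve cells was that in KLC2, a kinesin light chain gene, where an exon at chr11:66262674-66263080 had 2.30 and 2.71 in naïve cells, 4.24 and 4.25 in R1 cells and 2.95 and 2.16 in R2 (R1 minus naïve 1.74 ± 0.29, adjusted p = 0.018). In an intron of PC, the pyruvate carboxylase gene, 1998 bp from the start of LRFN4, the difference was 1.71 ± 0.24 (adjusted p = 0.013), and in an intron of MAP3K11, a stress kinase gene, it was 1.56 ± 0.26 (adjusted p = 0.018). In an intron shared by MYRF and TMEM258 at chr11:61782939-61783138 the naïve libraries had 2.30 and 2.47, R1 had 4.15 and 3.85 and R2 had 2.73 and 2.65 (1.61 ± 0.19, adjusted p = 0.0095). Both R1 libraries there were above the other 4. Lower in R2 than in naïve cells were regions in EML3 near MTA2 (-1.40 ± 0.25, adjusted p = 0.029), near C11orf68 (-1.34 ± 0.21, adjusted p = 0.021) and in an exon of RCE1 (-1.31 ± 0.19, adjusted p = 0.017). Near RCOR2 the naïve libraries had 4.02 and 3.91, R1 had 3.71 and 3.94 and R2 had 3.11 and 2.43 (R2 minus naïve -1.19 ± 0.25, adjusted p = 0.047). In an intron of FADS1 and FADS2, which encode fatty acid desaturases, they had 4.18 and 4.04, 4.03 and 4.20, and 2.73 and 3.13 (-1.18 ± 0.21, adjusted p = 0.027). In an intron of C11orf24 the values were 2.70 and 2.47, 3.88 and 3.94, and 3.11 and 2.99 (resistant minus naïve 0.90 ± 0.16, adjusted p = 0.035). All regions of this paragraph shared a peak of the first R1 library with other regions, a peak of 1448 bp at C11orf24 and of 2696 to 22597 bp at the rest, so the limit given above holds for each.

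Most of the 11q genes listed for DNA repair, splicing and mitochondria had open starts in all libraries, and most of those listed for neural roles or for apoptosis and matrix did not. Of the 769 protein-coding genes of 11q that are not olfactory receptors, 355 (46.2%) had a start-site peak in all 6 libraries and 120 had none in any. The share in all 6 was lower in the outer segments, and the part of position in the differences between lists was not tested. Of 68 genes in 7 lists, 37 had a start-site peak in all 6 libraries and 8 had none in any. limma tested 36 of them. None was called between R1 and naïve, R2 and naïve or resistant and naïve cells (at an unadjusted p under 0.05 the counts were 3, 1 and 3, against 23.9%, 23.3% and 23.2% of all regions), and 1 was called between R1 and R2, against 12.6% of all regions in either direction. This was FOSL1, which encodes an AP-1 subunit. Its promoter percentile was 81.9 and 71.6 in naïve cells, 46.9 and 48.4 in R1 cells and 65.9 and 75.7 in R2 (R1 minus R2 -0.76 ± 0.19 on the log2 scale, adjusted p = 0.042, and R1 minus naïve -0.77 ± 0.19, adjusted p = 0.056).

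Of the 10 genes for splicing and the CRL4 ligase, 9 had a peak in all libraries. SF3B2, a core splicing factor gene, had promoter percentiles of 80.8 and 97.2 in naïve cells, 92.1 and 96.0 in R1 cells and 96.1 and 94.5 in R2. DDB1, the adaptor through which DCAF15 joins its ligase, had 72.0 and 92.2, 82.1 and 90.5, and 55.4 and 67.6, and was not called in any comparison. Of the 12 genes for DNA damage and chromatin, 9 had a peak in all, led by MEN1, the menin tumor suppressor gene, with 97.7 and 92.9, 91.4 and 92.2, and 93.3 and 95.2. The start shared by ATM and NPAT, in the middle segment, had 70.4 and 73.6, 75.1 and 60.6, and 79.1 and 73.2. ATM was thus open in all 6 libraries.

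Of the 10 mitochondria and hypoxia genes, 7 had a peak in all libraries. NDUFV1, of respiratory complex I, had percentiles of 88.7 and 88.6, 90.7 and 92.2, and 84.9 and 85.6. SDHD, of complex II, lies at the beginning of the distal segment and had a peak in the R1 libraries only. The neural list had 3 of 10 genes open in all libraries: CCND1 (74.9 and 67.1, 68.5 and 73.5, 55.4 and 57.7), DLG2, a synaptic scaffold gene of the middle segment (55.2 and 67.1, 67.6 and 58.5, 65.9 and 75.7), and NRXN2, a synaptic adhesion gene (79.7 and 88.6, 79.0 and 83.6, 62.5 and 64.5). NCAM1 and CADM1, in the distal segment, had a peak in 5 of 6 lists and none in the first R2 library, and NTM had none. Absence from a list means that no peak passed at that library's depth.

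The list of Hippo, apoptosis and matrix genes was the least open, with 1 of 12 in all libraries and 5 in none. The one in all was BIRC2, which encodes an inhibitor of apoptosis, with percentiles of 59.0 and 45.2 in naïve cells, 85.5 and 74.5 in R1 cells and 47.6 and 57.7 in R2 (R1 minus naïve 0.85 ± 0.23 on the log2 scale, adjusted p = 0.071). The collagenase and stromelysin genes MMP1, MMP3, MMP10 and MMP13 and CASP1 had no start-site peak in any list. Of the 11 signalling and transcription factor genes, 6 were open in all, led by ESRRA, a nuclear receptor gene, with 93.5 and 83.8, 93.8 and 93.7, and 94.2 and 97.2. ETS1 had no peak in any list, and FLI1, ZBTB16 and POU2F3, all in the distal segment, had one in the R1 libraries only. Of 3 noncoding genes, MALAT1 and NEAT1 were open in all and MIR100HG in none. Among 10 genes of 11p the call was for IGF2, a growth factor gene, which was higher in R1 (0.83 ± 0.18, adjusted p = 0.040) and in resistant cells (0.77 ± 0.16, adjusted p = 0.047).

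Ranks of the 819 regions leaned toward the resistant cells along the arm. Each region was given its percentile rank by −log10 p among all 36449, and its mean in naïve cells was taken from that in resistant cells. The median shift on 11q was 5.49 percentile points, 5.88 for R1 and 3.86 for R2, and 549 of 819 regions (67.03%) were higher (two-sided exact permutation test over libraries, p = 0.0667, the smallest possible). The median rank was 38.4 and 46.6 in naïve cells, 57.4 and 58.9 in R1 cells and 41.5 and 43.2 in R2. The medians of the R2 libraries thus lay between those of the naïve libraries, whereas the mean ranks, at 42.9 and 46.0 in naïve cells, 53.4 and 53.98 in R1 cells and 48.0 and 46.5 in R2, put both naïve libraries lowest. On 11p the shift was 1.64 points, with 5.02 for R1 and -1.26 for R2 (exact p = 0.667), and over the genome it was -0.438. Regions had to be peaks of the first R2 list, which favours regions high there, and the part of this choice was not tested.

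Among the tested regions the shift was larger on the outer arm, where few were tested. These were 25 of the 60 middle and 57 of the 130 distal peaks of the first R2 list, itself a resistant library. The limit just given thus holds here too. For GC-rich promoters, taken without this filter, the R2 medians in the distal segment (19.4 and 18.9, the rank of genes with no peak) were below the naïve ones (34.3 and 35.8). In the middle segment they were above. It was 4.81 points over 737 proximal regions (exact p = 0.133), 15.9 over 25 middle regions, of which 24 were higher (exact p = 0.133), and 11.5 over 57 distal regions, of which 50 were higher (exact p = 0.0667). For R2 it was 23.9 points in the middle and 15.4 in the distal segment, and for R1 11.6 and 9.59. All 12 bins of 5 Mb with at least 5 regions had a positive shift, from 4.34 to 19.99 points. For R2 alone the bin of 60 to 65 Mb, with 319 regions, had -1.16, and of 16 bins of 2 Mb 15 were positive, with -0.415 the lowest. The naïve libraries had distal medians of 30.6 and 35.2, beside 51.7 and 45.0 in R1 cells and 51.0 and 51.3 in R2, so both naïve libraries were below all 4 others. No region of the middle or distal segment was called between resistant and naïve cells by limma, and at an unadjusted p under 0.05 there were 6 higher and 0 lower of 25 in the middle and 11 higher and 1 lower of 57 in the distal segment. In either direction these totals are near the 23.2% of all regions. The difference in median rank between the arms within a library, 11q minus 11p, was -7.30 and 0 points in naïve cells and 0 in R1 and R2 (resistant minus naïve 3.65, exact permutation p = 0.333). Where it was 0, both arms had the same tied rank as their median. By mean rank the difference was -3.80 and -0.86 in naïve cells, -1.37 and -0.90 in R1 cells and 3.95 and 3.03 in R2 (resistant minus naïve 3.51, exact permutation p = 0.267). Of 38 exact tests of this kind, 6 reached the smallest p, and the lowest value after Benjamini-Hochberg adjustment was 0.362.

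Peak density on 11q relative to 11p was not higher in the resistant cells. The ratio of peaks per Mb on 11q to those on 11p was 0.840 and 0.795 in naïve cells, 0.768 and 0.801 in R1 cells and 0.637 and 0.638 in R2, so that 11q was the sparser arm in all 6 libraries. Both R2 libraries were lowest, and they were also the shallowest, and the part of depth in the ratio was not tested.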

How the data were processed

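The data were 6 deposited lists of ATAC-seq peaks, 2 libraries for each of 3 cell types. The submitters' processing notes name BWA 0.7.12-r1039, Picard 1.65, SAMtools 1.3.1, MACS2 2.2.7.1 and bedtools 2.25.0, and the methods give a peak threshold of q 0.01 in each library. The authors deposited, for each peak, a fold enrichment, which is a ratio of pileup to background, and the −log10 of its p and q. The methods name hg19 and the notes both builds. Coordinates ran beyond no hg38 chromosome end and were read as hg38, with GENCODE release 44. DNA copy number was not analysed here.

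Members and gene lists were chosen with earlier results of these data known. Overlap meant at least 1 base. Where several peaks overlapped a region, the best by p was used. Background rates were recovered from the steps of the deposited folds. Quantile-normalized log2 fold enrichment was tested with limma 3.58.1 in R 4.3.3, in 1 model with a mean per cell type, no replicate block and a threshold of 0.05 after Benjamini-Hochberg adjustment. Libraries were otherwise compared by two-sided exact permutation tests over 15 arrangements. The methods were tested on simulated data. Regions named were the 3 strongest at start sites and the 3 strongest beyond 1000 bp, up to 5 called regions per comparison and direction with the largest differences whose groups did not overlap, and regions restricted to a cell type, of which 1 is not reported here. Alternatives were a stricter q, other top lists, scalings, overlaps and filters, and leaving out each library. Peak lists hold no reads, so depth is known only relative to the other lists. Python 3.11.15 was used with SciPy 1.17.1, NumPy 2.4.6, pandas 2.3.3 and matplotlib 3.10.9.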

Additional observations from a re-analysis of the deposited data

Results flagged for a closer look

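R1 and R2, both from indisulam-resistant tumors, differed from each other at 100 regions of 11q (limma, adjusted p under 0.05). Among the regions named above, R1 minus R2 on the log2 scale was 1.31 in MYRF and TMEM258, 0.86 in C11orf24, 1.70 in KLC2, 1.58 in PC near LRFN4, 1.82 in MAP3K11, 1.41 in EML3 near MTA2, 1.67 near C11orf68, 1.43 in RCE1, 1.05 near RCOR2 and 1.19 in FADS1. All of these shared a peak of the first R1 library with another region. R1 minus R2 was -0.97 near SERPINH1, -0.81 in MYO7A, -1.03 in MRGPRF, -1.57 in PPFIA1 near CTTN, -1.15 near SYVN1, -1.35 near NAALADL1 and -0.76 at the start of FOSL1. Of these, the region in MRGPRF shared an R1 peak. No group had enough libraries for a check of single libraries that lie far from the rest.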

How the results depend on the processing

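Calls depended on the scaling, the overlap and the libraries. Between resistant and naïve cells 9 regions were called, and the totals of other fits, which need not hold these 9, were 3 with the replicate block, 27 with median centring, 14 with percentile ranks, 1 with an overlap of a fraction of 0.5 (a lower call, and only 42 regions of 11q tested, as for this overlap in each comparison), 20 with no filter on a peak in all lists, 3 beyond 1000 bp from starts, 16 with 1 region per shared peak (chosen after seeing the data) and 0 to 21 with 1 library left out. The 51 calls of R1 against naïve cells became 40 with the block, 108 with centring, 5 with the overlap (2 higher and 3 lower), 99 with no filter, 21 beyond starts and 0 to 75. The 16 of R2 became 8 with the block, 0 with the overlap, 43 with no filter, 6 beyond starts, 10 with a GC correction, 5 with 1 region per peak, and 0 to 15 with 1 library left out (15 without the second R2 library). The 100 of R1 against R2 became 97 with the block, 151 with centring, 6 with the overlap (5 higher and 1 lower), 205 with no filter, 57 beyond starts, 24 with 1 region per peak and 4 to 94. The replicate numbers did not pair the libraries (correlations of deviations 0.0205, -0.0199 and 0.0102). The rank shift of 5.49 was 3.60 with the overlap, 3.00 with no filter, 3.64 with 1 region per peak and 2.64 to 7.01 with 1 library left out. The arm difference of 3.65 was 7.97 with regions of the second R2 list, 7.39 with no filter, 7.41 beyond starts, 6.90 with the GC correction and 0 to 7.30 without 1 library. The top share of 0.345 was -0.0345 with the top 50000 and 0.233 to 0.465 without 1 library. The density ratio of 0.747 was 0.714 at a −log10 q of at least 5. The 5 regions restricted to R1 were 1 and 66 with the top 10000 and 50000. The share near starts of 37.0% was 49.2% within 2000 bp. The middle density of 3.34 per Mb was 4.03 and 4.11 with both bounds 2 Mb higher and lower, 4.48 with them 2 Mb further apart and 3.53 with them 2 Mb nearer to each other. The 35 named values cover 25 distinct regions. Of the 460 alternatives in which a named region was still tested, 285 kept their call, 175 lost it and 0 reversed. Alternatives in which the region was no longer tested were not counted. With 1 region per shared peak only 14 values kept their call and 4 lost it. With the overlap of a fraction of 0.5 only 4 values were still tested, and these kept it. The cause of these changes was not tested. No exact permutation test over these libraries could reach a p of 0.05.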
